A study of Mus musculus with 11 samples.

Results

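Genes that copy DNA and genes that carry out mitosis were examined as 1 module in gonadal white adipose tissue of adult mice lacking 14-3-3ζ. The module was a fixed list of 38 genes, 28 that act in mitosis and cytokinesis and 10 that act in DNA replication or nucleotide supply, and a gene was taken where the symbol of a locus equalled its name. All 38 were found, each at 1 locus with 1 symbol, among 42815 loci with a level in each genotype. The groups were 5 14-3-3ζKO and 6 wild-type (WT) samples of male C57Bl/6 mice aged 50 weeks, singly housed. The labels name standard chow, whereas the study names low-fat feeding beside its transcriptome of gonadal fat, and which applied to these animals is not settled here. The knockout mice came from crosses of heterozygotes, carried null alleles of Ywhaz, the gene for 14-3-3ζ, in every tissue, and were compared with littermates. The comparison asked which transcripts of adult visceral fat differ when this scaffold protein is missing, and here whether those of dividing cells do.

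Cells copy their DNA in S phase. The MCM2-7 complex unwinds the double helix, PCNA clamps the polymerases onto it, and ribonucleotide reductase and thymidylate synthase supply nucleotides. In mitosis CDK1 with its cyclins starts entry, Aurora and Polo-like kinases build the spindle, the kinetochore and its checkpoint control chromosome separation, and kinesins, PRC1, anillin and ECT2 divide the cell. Most cells of adult fat rest outside the cycle, and division there is known from tissue macrophages, stromal progenitors and endothelial cells. Transcription of these genes is periodic. E2F factors act mainly on replication genes before S phase, and the DREAM and B-MYB-MuvB complexes act on mitosis genes through the cell cycle genes homology region (CHR), often next to CCAAT boxes bound by NF-Y.

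Because the 2 classes are known to differ in these elements, the promoters of 6 genes that carry the results are shown. They are given 5′ to 3′ from RefSeq on GRCm38.p6, as 200 bases before the transcription start and 30 from it onwards. Capitals mark every match to a CHR (TTTGAA or TTCGAA) or an E2F word (TTTCCCGC, TTTGGCGC, TTTCGCGC or TTTGCCGC) on either strand, and overlapping matches run together.

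The first 3 are the mitosis genes Gas2l3, Cdk1 and Top2a, among the members with the largest differences.
Gas2l3, chr10:89443938-89444167, minus strand: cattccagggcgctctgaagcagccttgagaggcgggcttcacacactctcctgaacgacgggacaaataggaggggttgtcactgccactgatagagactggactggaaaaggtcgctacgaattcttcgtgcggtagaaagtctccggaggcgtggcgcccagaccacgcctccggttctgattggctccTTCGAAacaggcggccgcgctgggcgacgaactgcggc
Cdk1, chr10:69352883-69353112, minus strand: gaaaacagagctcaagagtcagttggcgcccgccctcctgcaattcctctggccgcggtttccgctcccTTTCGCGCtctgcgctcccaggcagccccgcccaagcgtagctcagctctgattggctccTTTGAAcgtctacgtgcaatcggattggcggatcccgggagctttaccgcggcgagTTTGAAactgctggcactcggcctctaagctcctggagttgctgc
Top2a, chr11:99024160-99024389, minus strand: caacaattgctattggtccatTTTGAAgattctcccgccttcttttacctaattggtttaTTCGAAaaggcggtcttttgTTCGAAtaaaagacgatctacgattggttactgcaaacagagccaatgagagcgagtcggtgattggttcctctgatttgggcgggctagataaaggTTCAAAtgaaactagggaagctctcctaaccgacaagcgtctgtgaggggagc

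The other 3 encode helicase subunits, Mcm5 and Mcm6 at the low end of the replication genes and Mcm7 at the high end.
Mcm5, chr8:75109309-75109538, plus strand: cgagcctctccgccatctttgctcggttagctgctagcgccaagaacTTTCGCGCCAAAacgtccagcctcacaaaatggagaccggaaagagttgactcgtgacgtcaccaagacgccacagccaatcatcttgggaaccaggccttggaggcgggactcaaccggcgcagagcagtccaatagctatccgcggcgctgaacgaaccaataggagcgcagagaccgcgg
Mcm6, chr1:128359676-128359905, minus strand: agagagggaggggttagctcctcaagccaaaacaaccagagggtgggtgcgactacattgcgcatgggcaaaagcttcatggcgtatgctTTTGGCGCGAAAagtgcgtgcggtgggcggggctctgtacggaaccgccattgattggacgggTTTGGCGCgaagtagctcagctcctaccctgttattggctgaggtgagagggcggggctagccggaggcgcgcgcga
Mcm7, chr5:138171854-138172083, minus strand: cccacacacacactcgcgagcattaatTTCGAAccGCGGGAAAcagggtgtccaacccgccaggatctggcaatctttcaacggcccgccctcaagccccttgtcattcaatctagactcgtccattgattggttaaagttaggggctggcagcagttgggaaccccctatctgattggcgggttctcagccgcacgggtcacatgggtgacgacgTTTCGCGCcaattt

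Levels were FPKM, fragment counts scaled by transcript length and library size, and the scaling used between libraries was not given in the sources used here. For most loci the files hold 1 pooled value per genotype, so the spread between libraries was not at hand and no test of those differences was run here. The labels give 1 read number for the sequencing of all samples and no total for each library, so precision per library could not be set from depth. Values per library were given for 86 loci, among them 1 member, Gas2l3. Ywhaz was 14.5 to 38.2 FPKM in the 5 14-3-3ζKO libraries and 94.2 to 118 FPKM in the 6 WT libraries, without overlap. WT replicates 1, 3 and 4 stood apart from the other libraries: they were the 3 highest of all 11 libraries at 64 of the 86 loci. The adipocyte genes Fabp4 (31136 FPKM in 14-3-3ζKO tissue and 13823 FPKM in WT tissue) and Cfd (7755 and 1899 FPKM) were the most abundant markers of the lists, and the tissue was labelled as fat.

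In the pooled values, 37 of the 38 members were lower in 14-3-3ζKO tissue than in WT tissue, and Mcm7 was the exception. Differences were taken as log2 of FPKM + 0.1, 14-3-3ζKO minus WT, which understates the change of low genes, and stand in parentheses after the levels. A locus counted as measured at a mean of at least 0.5 FPKM over the 2 genotypes, which 17885 loci and 37 members passed. Cenpf, at 0.335 FPKM in 14-3-3ζKO tissue and 0.619 FPKM in WT tissue, did not. Of the 37, 30 were lower by at least 1.5-fold, 7 lay within 1.5-fold and 0 were higher by as much, whereas 13.7% of all measured loci were lower and 23.1% were higher by at least 1.5-fold. Among the 16308 measured loci whose mean lay within the range of the members, the share lower was 13.5%. At a fold of 2, 22 members were lower, against 6.20% of measured loci, and 36 of the 37 were lower by any amount, against 45.7%. The median difference was -1.03 for the measured members and 0.06 for all measured loci.

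The 5 members Gas2l3, Bub1, Melk, Cenpe and Ttk passed the level of 0.5 FPKM only because they were above it in WT tissue, and counted over all 38 genes without that requirement 31 were lower by at least 1.5-fold, with a median of -1.03. Levels were low: 13 members were under 1 FPKM in 14-3-3ζKO tissue and 3 in WT tissue. In whole tissue, fewer dividing cells and less of these transcripts in each dividing cell cannot be told apart. For Gas2l3, the member with values per library, WT replicates 1, 3 and 4 held 90.3% of the sum over WT libraries. Whether the pooled WT values of the other members rest on the same libraries was not analysed here. For 7 members the locus also covered another annotated protein-coding gene, so that reads of both could enter the value. These were Prc1 (Rccd1), Kif20a (Brd8 and Cdc23), Nusap1 (Oip5), Ccna2 (Exosc9), Cdc20 (Elovl1), Tyms (Gm17448) and Mcm7 (Ap4m1, Cops6 and Taf6). Of the other 31 members, 27 were lower by at least 1.5-fold.

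**Figure D1:**
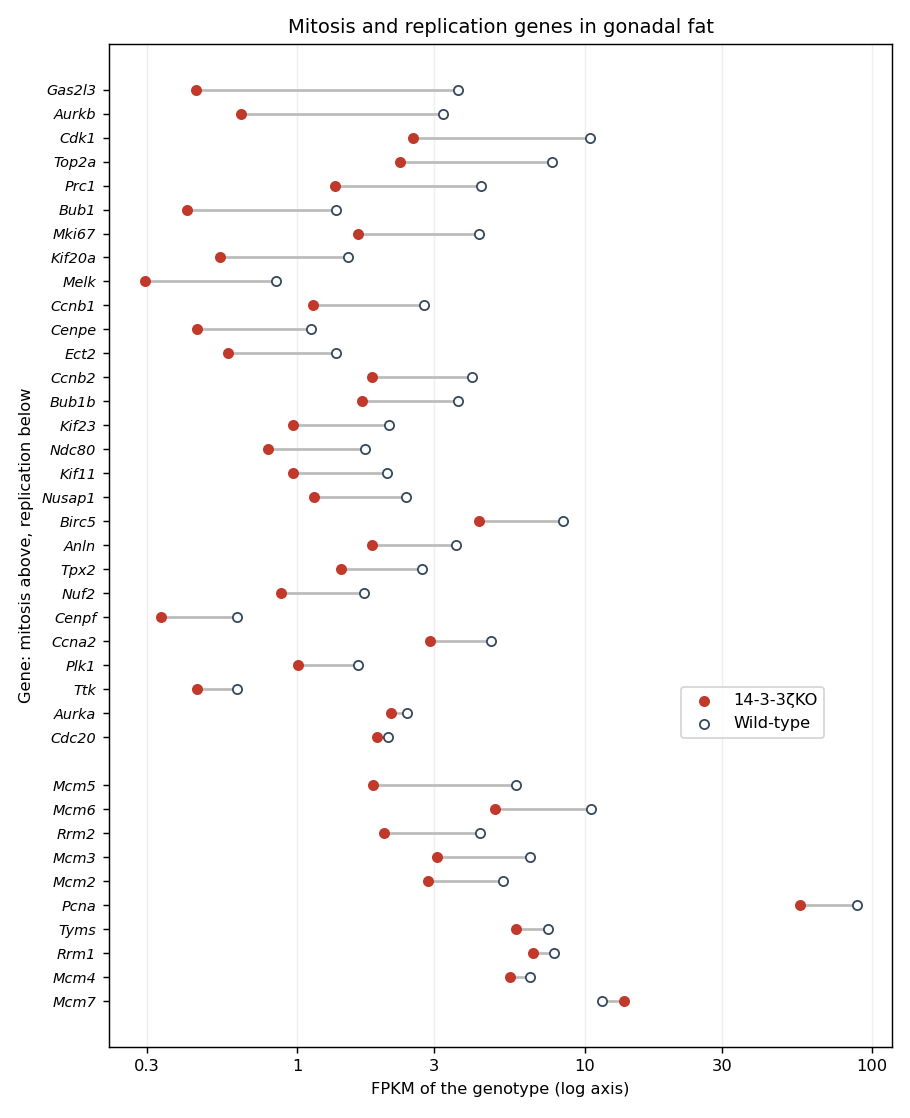
FPKM of each member (log axis) in 14-3-3ζKO tissue (filled red) and WT tissue (open), 1 pooled value per genotype, with mitosis genes above and replication genes below, each ordered by its log2 difference. The red point lies left of the open one for 37 of 38 genes, and the lines are longest for Gas2l3, Aurkb and Cdk1 and shortest for Cdc20.

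The cyclin-dependent kinase and its cyclins were lower together, all 4 by at least 1.5-fold, against 13.7% of all measured loci. Their summed level was 8.39 FPKM in 14-3-3ζKO tissue and 21.97 FPKM in WT tissue. Cdk1, the kinase that drives entry into mitosis, was 2.53 FPKM in 14-3-3ζKO tissue and 10.4 FPKM in WT tissue (log2 difference -2.001), the highest WT level among the mitosis genes. Its B-type cyclin partners differed less. Ccnb1 was 1.13 and 2.77 FPKM (-1.22), and Ccnb2 was 1.82 and 4.04 FPKM (-1.11) in 14-3-3ζKO and WT tissue. Ccna2, the cyclin A gene that acts from S phase into mitosis, was 2.91 and 4.72 FPKM (-0.68), with Exosc9 within its locus. The proliferation marker Mki67, which coats mitotic chromosomes, was 1.63 FPKM in 14-3-3ζKO tissue and 4.27 FPKM in WT tissue (-1.34). Top2a, the topoisomerase that untangles sister chromatids, was 2.29 and 7.68 FPKM (-1.71).

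Among the mitotic kinases and their partners the 2 Aurora kinases stood at opposite ends. Aurkb, the catalytic subunit of the chromosomal passenger complex, was 0.638 FPKM in 14-3-3ζKO tissue and 3.21 FPKM in WT tissue (log2 difference -2.16). Aurka, the spindle pole kinase, was 2.11 and 2.41 FPKM (-0.18), within 1.5-fold. Of their partners, 2 lay closer to each other, with Birc5 (survivin, a subunit of the passenger complex of Aurora B) at 4.30 and 8.42 FPKM (-0.95) and Tpx2 (which activates Aurora A on the spindle) at 1.42 and 2.72 FPKM (-0.89). The Polo-like kinase Plk1 was 1.01 FPKM in 14-3-3ζKO tissue and 1.63 FPKM in WT tissue (-0.64). Melk, a kinase of dividing and progenitor cells, was 0.294 and 0.847 FPKM (-1.26), the lowest 14-3-3ζKO level of all members.

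Of the 7 measured kinetochore and checkpoint genes, 5 were lower by at least 1.5-fold, against 13.7% of all measured loci. Bub1, a checkpoint kinase at the kinetochore, was 0.414 FPKM in 14-3-3ζKO tissue and 1.37 FPKM in WT tissue (log2 difference -1.51), and its relative Bub1b (BubR1) was 1.69 and 3.62 FPKM (-1.06). Ndc80 and Nuf2, which form a dimer that holds microtubules, moved by like amounts, -1.03 (0.793 and 1.72 FPKM) and -0.88 (0.877 and 1.70 FPKM). Cenpe, the kinetochore kinesin, was 0.447 FPKM in 14-3-3ζKO tissue and 1.12 FPKM in WT tissue (-1.15). The remaining pair was within 1.5-fold: Ttk (the checkpoint kinase MPS1) was 0.449 and 0.618 FPKM (-0.39), and Cdc20 (the activator of the anaphase-promoting complex) was 1.90 and 2.07 FPKM (-0.11), the smallest difference of any mitosis gene.

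All 8 genes of spindle motors and cytokinesis were lower by at least 1.5-fold, and 7 of them by at least 2-fold. Of all measured loci 13.7% and 6.20% were lower by these folds. Gas2l3, which links actin to microtubules at the spindle midzone, had the largest difference of the 38 members (-2.78 from the pooled values, 0.445 FPKM in 14-3-3ζKO tissue and 3.64 FPKM in WT tissue). Prc1, which bundles the microtubules of the midzone, was 1.36 FPKM in 14-3-3ζKO tissue and 4.38 FPKM in WT tissue (log2 difference -1.62). Its kinesin partners were Kif20a at 0.539 and 1.5 FPKM (-1.32) and Kif23 at 0.966 and 2.08 FPKM (-1.03). Ect2, the exchange factor that activates RhoA at the cleavage furrow, was 0.573 and 1.37 FPKM (-1.13), and the furrow scaffold Anln was 1.82 and 3.57 FPKM (-0.93). Kif11, the motor that separates the spindle poles, was 0.970 and 2.05 FPKM (-1.01), and Nusap1, which stabilises spindle microtubules, was 1.15 and 2.40 FPKM (-1.003).

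Gas2l3 (chr10:88871393-88906712 on NCBIM37, minus strand, protein coding) was the member whose libraries could be compared one by one. It was 0.638, 0.270, 0.184, 0.715 and 0.420 FPKM in 14-3-3ζKO replicates 1 to 5. In WT replicates 1 to 6 it was 6.76, 0.793, 6.50, 6.44, 0.946 and 0.387 FPKM. WT replicates 1, 3 and 4 were high, WT replicates 2, 5 and 6 lay near the 14-3-3ζKO libraries, and the groups overlapped, since WT replicate 6 was below 3 of the 5 14-3-3ζKO libraries. The mean was 0.445 ± 0.229 FPKM in 14-3-3ζKO tissue (SD, n = 5) and 3.64 ± 3.22 FPKM in WT tissue (SD, n = 6). With the logarithm taken in each library, as log2(FPKM + 0.1), before averaging, the difference was -2.17 ± 0.77 (SE), and the exact permutation test over 462 divisions of the libraries gave a two-sided p of 0.0368 and of 0.0487 after Benjamini-Hochberg adjustment over the 86 loci. An adjusted p under 0.05 with a lower level in 14-3-3ζKO tissue was found at 58.1% of the 86 loci. These loci had been chosen by the authors' own test on the same libraries, so this p is not independent evidence. The labels number the samples without naming animals. The unadjusted p is the share of divisions of these samples with a difference at least as large, in either direction, as the one seen.

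Leaving out a library changed the call. With any 1 library left out the difference lay between -2.61 and -1.85, and the exact test passed the adjusted threshold of 0.05 only without WT replicate 6 (0.0175) and missed it in the other 10 cases (0.0542 to 0.0807). With all libraries 65 of the 86 loci passed that threshold. Without 14-3-3ζKO replicate 1, 2, 4 or 5, 0 loci passed, so the lost call was not particular to Gas2l3 there. Without 14-3-3ζKO replicate 3 it was 9 loci, and without a WT library 14 to 75. Without WT replicates 1, 3 and 4 the WT mean was 0.709 ± 0.289 FPKM (SD, n = 3) and the difference was -0.61. The same 3 libraries were the highest for all 8 macrophage markers with values per library, as they were at 64 of the 86 loci. Cd68, a lysosomal glycoprotein of macrophages, was 52.1, 56.9, 32.2, 41.4 and 31.1 FPKM in 14-3-3ζKO replicates 1 to 5. In WT replicates 1, 3 and 4 it was 461, 499 and 476 FPKM, and in WT replicates 2, 5 and 6 it was 84.9, 72.5 and 41.8 FPKM. Emr1, which encodes F4/80, was 4.19 to 10.8 FPKM in 14-3-3ζKO libraries, 123 to 199 FPKM in WT replicates 1, 3 and 4 and 15.6 to 26.1 FPKM in the other WT libraries. For the other 37 members, how the pooled WT value divided among the 6 libraries was not analysed here.

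**Figure D2:**
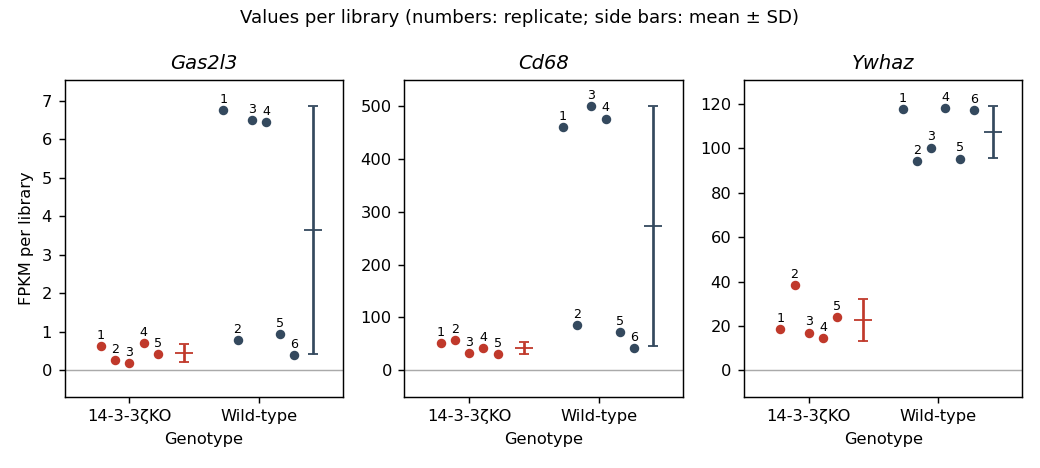
FPKM per library of Gas2l3, the macrophage marker Cd68 and the targeted gene Ywhaz in 14-3-3ζKO (red, left) and WT (dark, right) tissue, with replicate numbers beside the points and bars for the mean ± SD (n = 5 and n = 6). WT replicates 1, 3 and 4 lie at 6.44 FPKM or more for Gas2l3 and at 461 FPKM or more for Cd68, while the WT libraries of Ywhaz are close together.

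Replication genes were lower at 9 of 10 genes, 6 of them by at least 1.5-fold, against 13.7% of all measured loci. Of the 6 subunits of the MCM2-7 helicase, 4 were lower by that much. Mcm5 was the lowest, at 1.84 FPKM in 14-3-3ζKO tissue and 5.77 FPKM in WT tissue (log2 difference -1.60). Mcm6 was 4.87 and 10.5 FPKM (-1.10), Mcm3 was 3.05 and 6.43 FPKM (-1.05), and Mcm2 was 2.86 and 5.19 FPKM (-0.84). The helicase subunits were thus unequal, because Mcm4 was 5.52 and 6.43 FPKM (-0.22) and Mcm7 was 13.7 FPKM in 14-3-3ζKO tissue and 11.5 FPKM in WT tissue (0.25). The level given for Mcm7 came from a locus (chr5:138602299-138628679, NCBIM37) of 26381 bases around a gene of 7840 bases. Ap4m1, Cops6 and Taf6 lie inside it, and its direction is uncertain for that reason. The same doubt applies to the lower values of Prc1, Kif20a, Nusap1, Ccna2, Cdc20 and Tyms, whose loci also covered another protein-coding gene. For Kif20a the locus was 53204 bases around a gene of 8642 bases. Pcna, the sliding clamp, was by far the most abundant member at 56.1 FPKM in 14-3-3ζKO tissue and 88.5 FPKM in WT tissue (-0.66).

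The nucleotide supply genes were split. Rrm2, the subunit of ribonucleotide reductase that is made in S phase and destroyed afterwards, was 2.0 FPKM in 14-3-3ζKO tissue and 4.33 FPKM in WT tissue (log2 difference -1.07). Rrm1, the large subunit of the same enzyme, which is the more stable one, was 6.63 and 7.82 FPKM (-0.24). Tyms, thymidylate synthase, was 5.79 and 7.45 FPKM (-0.36).

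The 2 classes were then set against each other. At least 1.5-fold lower were 24 of 27 measured mitosis genes (25 of all 28) and 6 of 10 replication genes. Of all measured loci 13.7% were lower and 23.1% were higher by as much. The median difference was -1.06 for mitosis genes, with a range of -2.78 to -0.11, and -0.75 for replication genes, with a range of -1.60 to 0.25, and 22 mitosis genes lay below the replication median. Summed over the class, mitosis genes held 36.8 FPKM in 14-3-3ζKO tissue and 87.0 FPKM in WT tissue, or 42.3% of the WT sum, and replication genes held 102 and 154 FPKM, or 66.5%. For the wider lists described next, the sums were 195 and 213 FPKM (91.4%) for other mitosis genes and 312 and 296 FPKM (105%) for other replication genes. A large part of the first was Pttg1 (68.03 and 40.04 FPKM) and Cks1b (31.0 and 24.8 FPKM), both named after their values were seen. Of the 46 measured genes of that list, 29 were lower and 3 were higher by at least 1.5-fold. The ratio of the mitosis sum to the replication sum was 0.360 in 14-3-3ζKO tissue and 0.565 in WT tissue, and without Pcna it was 0.796 and 1.33. The gap between the medians, -0.31, depended on the scale: with a pseudocount of 1 FPKM, which shrinks the low mitosis genes more, the medians were -0.66 and -0.67 and the gap was 0.00. Among the 31 members with no overlapping protein-coding gene the medians were -1.06 for mitosis and -0.95 for replication genes. Genes are not replicates, and whether the classes differ was not tested.

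Further genes of the same pathways were counted in wider lists, to be read beside the 13.7% of all measured loci lower and 23.1% higher by at least 1.5-fold. Among 46 measured of 51 other mitosis genes, 29 were lower and 3 were higher by at least 1.5-fold, with a median of -0.88. The lowest were Fam64a, a mitotic regulator (0.372 FPKM in 14-3-3ζKO tissue and 2.64 FPKM in WT tissue), and Hmmr, a spindle protein (0.259 and 1.37 FPKM). The highest were the kinesin Kif2c (2.94 and 1.28 FPKM) and the centrosomal kinase Nek2 (3.59 and 1.82 FPKM). The third that was higher, named after its value was seen, was the abundant securin gene Pttg1 (68.03 and 40.04 FPKM). Among 40 measured of 43 other replication genes 7 were lower and 3 were higher, with a median of 0.01. Their lowest were Tk1, thymidine kinase (2.86 and 9.07 FPKM), and Pole2, a subunit of polymerase epsilon (0.608 and 1.82 FPKM). Their highest were Orc6, of the origin recognition complex (23.7 and 12.5 FPKM), and Pola2, of polymerase alpha (14.4 and 7.95 FPKM). Of 18 measured transcription regulators of the cell cycle, 4 were lower and 1 was higher, with a median of -0.11. E2f1, an activator of S phase genes, was 1.96 FPKM in 14-3-3ζKO tissue and 6.13 FPKM in WT tissue, and Rbl1 (p107) was 2.47 and 4.59 FPKM. E2f2 was 1.99 and 1.15 FPKM, and Lin37, a MuvB subunit, was 15.7 and 11.9 FPKM.

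Markers of cell types that gonadal fat can hold moved in the same pooled values, where 13.7% of all measured loci were lower and 23.1% higher by at least 1.5-fold. Of 20 macrophage markers 16 were lower by at least 1.5-fold and 0 were higher (median -2.37), and their sum was 1217 FPKM in 14-3-3ζKO tissue and 6360 FPKM in WT tissue. The most abundant were Lyz2, lysozyme (334 and 2311 FPKM), and Lgals3, galectin 3 (308 and 1334 FPKM). Markers of stromal progenitors, which also divide in fat, were 1133 and 1060 FPKM in sum (2 lower and 1 higher of 12, median -0.22), led by Dcn (518 and 512 FPKM) and a locus shared by Ly6a and Ly6c1 (417 and 315 FPKM), which make up most of it. The 2 lower were Lum (17.0 and 63.8 FPKM) and Pdgfra (8.65 and 17.4 FPKM), the latter named after its value was seen. The 3 highest libraries of Lum were WT replicates 1, 3 and 4, as at 64 of the 86 loci with values per library. Endothelial markers were 343 and 251 FPKM in sum (0 lower and 4 higher of 10, median 0.28), with Pecam1 at 52.9 and 45.1 FPKM and a locus shared by Esam and Vsig2 at 95.5 and 47.2 FPKM. Lymphocyte markers were 59.6 and 35.4 FPKM (0 lower and 6 higher of 14, median 0.51), led by Cd79b (13.5 and 5.96 FPKM) and Cd79a (9.71 and 4.74 FPKM). Mature adipocyte markers were 47277 and 22431 FPKM (1 lower and 5 higher of 14, median 0.34), a sum carried mostly by Fabp4 and Cfd.

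Male germ cell and erythroid markers were higher in the pooled values of 14-3-3ζKO tissue. In sum, germ cell markers were 634 FPKM in 14-3-3ζKO tissue and 83.4 FPKM in WT tissue (0 lower and 8 higher of 9, median 2.79), with the sperm protamines Prm1 (156 and 10.7 FPKM) and Prm2 (150.0 and 28.5 FPKM) in front. Erythroid markers were 5716 and 1634 FPKM (0 lower and 7 higher of 7, median 1.87), led by Hbb-b1 (2488 and 781 FPKM) and Hba-a1 (1376 and 377 FPKM). Slc4a1, the 1 erythroid marker with values per library, was 20.8 FPKM in 14-3-3ζKO replicate 1, 0.0508 to 0.526 FPKM in the other 14-3-3ζKO libraries and 0.0275 to 0.452 FPKM in WT libraries, and how the other erythroid values divided among libraries was not analysed here. Germ cell precursors and erythroblasts are known to divide in their own tissues. The part of any of these cell types in the differences of the 38 members was not tested.

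**Figure D3:**
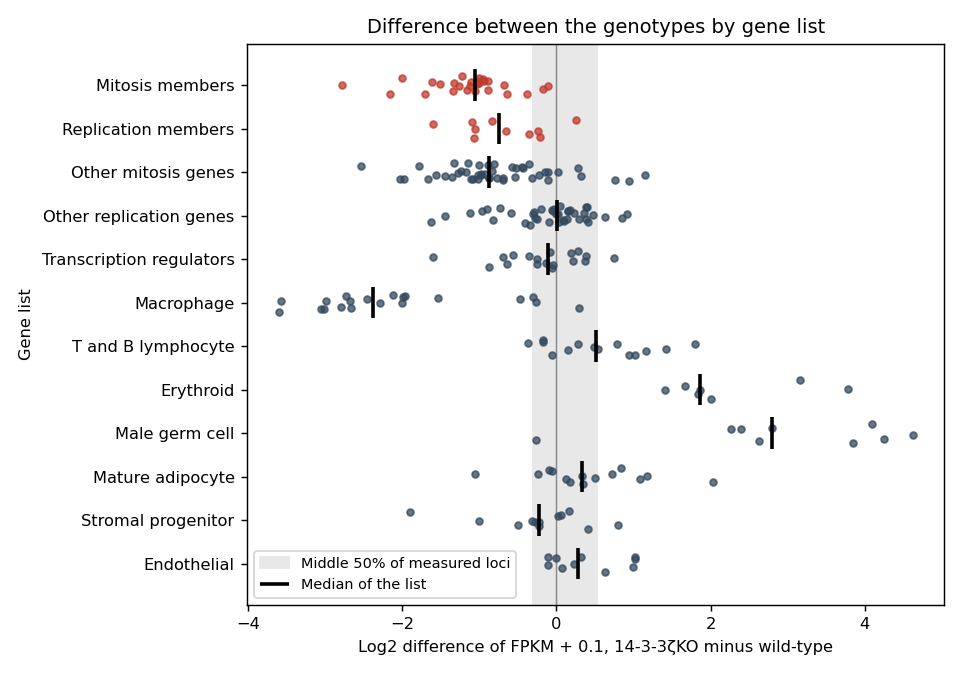
Log2 difference of FPKM + 0.1, 14-3-3ζKO minus WT, of each measured gene by list, with a black line at the median of the list and grey shading over the middle 50% of all measured loci (-0.31 to 0.53). Mitosis members (median -1.06) and other mitosis genes (-0.88) lie mostly left of the shading, other replication genes (0.01) lie around 0, and macrophage markers (-2.37) lie farthest left.

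Promoter sequence, which had no part in choosing the members, was searched in both classes. RefSeq promoters of 250 bases before to 50 after the start were found for 33 of the 38 members, and Aurkb, Ccna2, Kif20a, Mcm4 and Tpx2 had no entry. A CHR was present in 18 of 24 mitosis genes and 2 of 9 replication genes (Mcm2 and Mcm7), against 21.7% of 27025 genes. An E2F word was present in 1 mitosis gene (Cdk1) and 4 replication genes (Mcm3, Mcm5, Mcm6 and Mcm7), against 2.61% of all genes. CCAAT on either strand was common to both, in 18 mitosis and 8 replication genes, against 41.1% of all genes. In Gas2l3 the CHR began 8 bases before the start, just downstream of a CCAAT box on the opposite strand. Cdk1 had 2 CHRs and 1 E2F word, and Top2a had 4 CHRs. In Mcm5 and Mcm6 a pair of E2F words on opposite strands overlapped, and Mcm7 held 2 E2F words and 1 CHR.

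Differences between the genotypes were also set out by the presence of a match. Among mitosis genes the median was -1.05 with a CHR and -1.08 without one, and -1.12 with a CCAAT box and -0.98 without one. Gas2l3 and Cdc20, at opposite ends of the mitosis genes, both held a CHR and a CCAAT box. Both values have limits, since the locus of Cdc20 also covered Elovl1. For Gas2l3, WT replicates 1, 3 and 4 held 90.3% of the sum over WT libraries. Among replication genes the median was -1.07 with an E2F word and -0.66 without one, a comparison of 4 genes with 5. It was -0.29 for the 2 with a CHR and -1.05 for the others, and -0.95 for the 8 with a CCAAT box, while Tyms, the 1 without, was at -0.36. These are matches of letters in windows, given as a description with no test, and a promoter without one may hold other forms of the element.

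**Figure D4:**
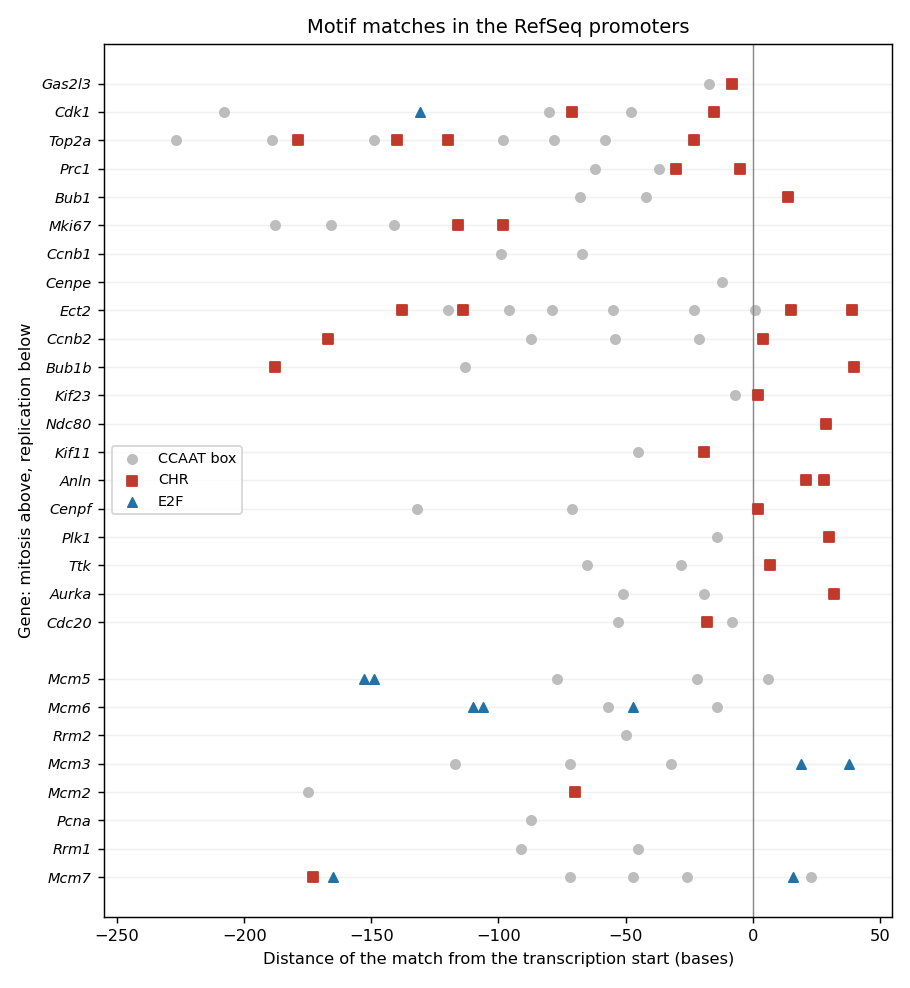
Position of each match relative to the transcription start (bases) in RefSeq promoters of 28 members with at least 1 match, mitosis genes above and replication genes below, for CHR (red squares), E2F words (blue triangles) and CCAAT boxes (grey circles), with all entries of a gene on 1 line. CHRs lie in 18 mitosis and 2 replication genes, E2F words in 1 mitosis and 4 replication genes.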

How the data were processed

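RNA of gonadal white adipose tissue was sequenced as TruSeq libraries with paired-end reads of 150 bp, and totals per library were not used here. The submitters' processing notes name TopHat2 2.0.11, Cufflinks 2.2.0, Cuffdiff and the build NCBIM37, and the study's methods give the first as the aligner. The authors deposited FPKM as 1 value per genotype for 42815 loci and per library for 86 loci. The scaling between libraries, which bears on every level, was not given in the sources used here. Columns of the authors' own comparison (fold changes, test statistics, p-values, q-values and status) were not used.

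The members, gene lists and tests were chosen with earlier results of these data known. Samples were grouped by their titles. Loci were matched by symbol, and where a listed gene had several loci the one of highest mean FPKM was used. Locus starts were raised by 1, after which 27 of 38 equalled the gene start in the annotation of the same build. Log2 differences used a pseudocount of 0.1 FPKM and a floor of 0.5 FPKM on the mean of both genotypes. Pooled values had no test. Values per library were compared as mean log2(FPKM + 0.1) by exact permutation (two-sided), adjusted by Benjamini-Hochberg over the 86 loci, or by limma 3.58.1 as an alternative (R 4.3.3, python 3.11.15, numpy 2.4.6, pandas 2.3.3, matplotlib 3.10.9). Both tests were checked on simulated normal values with an even shift in some rows, which lack the split among WT libraries seen for Gas2l3. FPKM hold no counts, so no count model was run. All 38 members were named, with the 2 largest differences in each direction of each wider list, the 2 most abundant genes of each cell type list, any list gene with values per library that a result turned on, and Ywhaz. Alternatives were other pseudocounts, floors, folds, scalings and locus rules, libraries left out and a replicate block. Cdt1, Gins2 and Ahsp were not matched to a locus. A further gene with values per library is not reported here.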

Additional observations from a re-analysis of the deposited data

Results flagged for a closer look

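Slc4a1, an anion exchanger of red cells and a marker on the erythroid list, was 20.8 FPKM in 14-3-3ζKO replicate 1, far from the other 4 14-3-3ζKO libraries, which lay between 0.0508 and 0.526 FPKM. The 6 WT libraries lay between 0.0275 and 0.452 FPKM. The 14-3-3ζKO mean of 4.39 ± 9.18 FPKM (SD, n = 5) was therefore set by that library. Gas2l3 in the same library was 0.638 FPKM, within the range of the other 14-3-3ζKO libraries. The gap to the next library was 97.7% of the range of its group, past the limit of Dixon's test. Of 28 groups looked at (14 genes in each genotype), 1 had such a library, and that limit is set so that chance alone passes it in about 1 of 20 groups.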

How the results depend on the processing

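The number of members lower by at least 1.5-fold stayed within 1.5 times of 30 under every pseudocount, floor, scaling and locus rule tried and at a fold of 2, and 0 were higher in each case. No member past 1.5-fold changed sign. With a pseudocount of 1 FPKM, 25 members were lower by at least 1.5-fold, against 9.67% of measured loci. The median of mitosis genes was then -0.66 and the gap between the class medians was 0.0035. The median of all measured loci, 0.06, left the counts as they were when it was subtracted. For Gas2l3 a pseudocount of 1 FPKM gave -1.32 (adjusted p = 0.0672, exact permutation test), and leaving out WT replicates 1, 3 and 4 together, chosen after seeing the data, gave -0.61. Leaving out 1 library gave -2.61 to -1.85. By limma the adjusted p was 0.0214. Replicate numbers are shared by the genotypes. Over the 86 loci, deviations of same-numbered libraries correlated between -0.39 and 0.58, and none matched its own number best. Since these loci were chosen by the authors' own test, this does not settle whether the numbers pair the samples. With the replicate block limma gave -2.61 (adjusted p = 0.00855), from the 5 numbers both genotypes share. With 1 pooled value per genotype, no library could be left out for the other 37 members.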

Other observations

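Of the 86 loci with values per library, a further gene known from DNA replication is given here, chosen after its values were seen. Zranb3, a helicase that binds PCNA at stalled forks, was 0.596, 2.48, 2.53, 2.02 and 1.18 FPKM in 14-3-3ζKO replicates 1 to 5. In WT replicates 1 to 6 it was 12.2, 4.09, 26.7, 23.8, 1.59 and 1.78 FPKM. As with Gas2l3, the groups overlapped and WT replicates 1, 3 and 4 were the 3 highest libraries, which held at 64 of the 86 loci. The stromal gene Lum had the same 3 highest libraries, at 6.57 to 22.3 FPKM in 14-3-3ζKO tissue, 100.2 to 118 FPKM in WT replicates 1, 3 and 4 and 13.1 to 22.9 FPKM in the other WT libraries. By the exact permutation test the adjusted p was 0.0679 for Zranb3 and 0.0991 for Lum. Neither passed 0.05, which 65 of the 86 loci did.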
